A study of Mus musculus with 2 samples.

Results

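The regulators of type 1 helper T (Th1) cells and the interferon gamma axis were read through 9 of the 18193 genes that an expression array named. The genes, chosen by symbol, were Th1 transcription factors, receptors of IL-12, IL-18 and interferon gamma, and Ifng itself, which has been described as a target of the microRNA miR-125a. Of the 45101 probe sets of this Affymetrix short-oligonucleotide mouse array, 12 named 1 of these genes in the platform annotation. Tbx21, Hlx, Ifng, Il12rb1, Il12rb2 and Ifngr1 had 1 probe set each, and Eomes, Il18rap and Ifngr2 had 2 each. No probe set that named several genes included any of them.

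Interferon gamma (Ifng) is the signature cytokine of Th1 cells. Its transcription depends on the T-box factor T-bet (Tbx21), with Eomes as a close relative of T-bet and the homeobox factor Hlx as a partner. IL-12, through its receptor chains Il12rb1 and Il12rb2, and IL-18, through a receptor that includes Il18rap, drive Ifng transcription, and the secreted cytokine signals through a receptor of Ifngr1, which binds it, and Ifngr2, which is needed to pass the signal on. Regulatory T (Treg) cells, a CD4 lineage that dampens immune responses, can take up parts of this programme.

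Treg RNA from miR-125a-deficient mice (miR-125a KO) was compared with Treg RNA from wild-type (WT) littermates. The mice were 6 to 8 weeks old, and spleen CD4 T cells enriched with magnets were sorted for CD4 and high CD25. Each genotype's RNA was an equal-parts pool over mice, read on 1 array. The number of mice, the strain background and the way the deletion was made are not given in the sources used here. With 1 array per genotype there is no replicate check and no test, so each difference below describes 2 pooled samples.

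The mature miR-125a strand, 5′ to 3′, is shown first because the comparison removes its gene. Its bases 2 to 8, the seed that pairs with targets, are in capitals. In the RefSeq miRNA table of GRCm38.p6, 5 mature mouse miRNAs carried this seed, and among them miR-125b-5p is made from other loci.
mmu-miR-125a-5p: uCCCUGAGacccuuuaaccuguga
mmu-miR-125b-5p: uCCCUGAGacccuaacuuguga
mmu-miR-351-5p: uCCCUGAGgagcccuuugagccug
mmu-miR-6367: uCCCUGAGacccugguucagga
mmu-miR-6394: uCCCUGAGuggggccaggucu
Mir125a lies on the plus strand of chromosome 17, with the mature strand at chr17:17830817-17830840. Of the annotated probe sets, 0 named Mir125a, so the deletion itself was not checked here.

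Signals are MAS5 values on a linear scale, on which both arrays had a mean of 500.0 after trimming 2% from each end. The log2 ratio is log2 of the miR-125a KO signal plus 16.3 over the WT signal plus 16.3, a pseudocount at the 25th percentile of all signals, so it understates the change of dim probe sets. Ratios were counted for probe sets whose mean over the pools reached 62.5, the array's median. The probe-set SD given with a ratio is the SD by which probe sets of 1 gene disagree at similar signal, and it leaves out variation between mice. Pearson's r between the 2 arrays was 0.975 over the log2 signals of the 19229 probe sets past the minimum that name 1 gene, which are not independent replicates.

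Of the Th1 and interferon gamma probe sets, 10 of 12 passed the minimum, for 8 of the 9 genes. By the rule of 2-fold or more, 1 of the 10 was lower in the miR-125a KO pool and 0 were higher. Across all probe sets past the minimum, 1.38% were lower and 1.03% higher by that much, 2.42% in all. Higher probe sets made up 42.8% of these, and 54.6% after loess scaling, which left the members' counts as they were. At 1.5-fold, 2 of the 10 were lower and 0 higher, against 7.15% lower and 4.72% higher of all probe sets. The median log2 ratio of the 10 was -0.03, beside -0.02 over all probe sets. Both probe sets past 1.5-fold belonged to the interferon gamma receptor. Counts this small cannot set the group apart from the array as a whole.

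**Figure D1:**
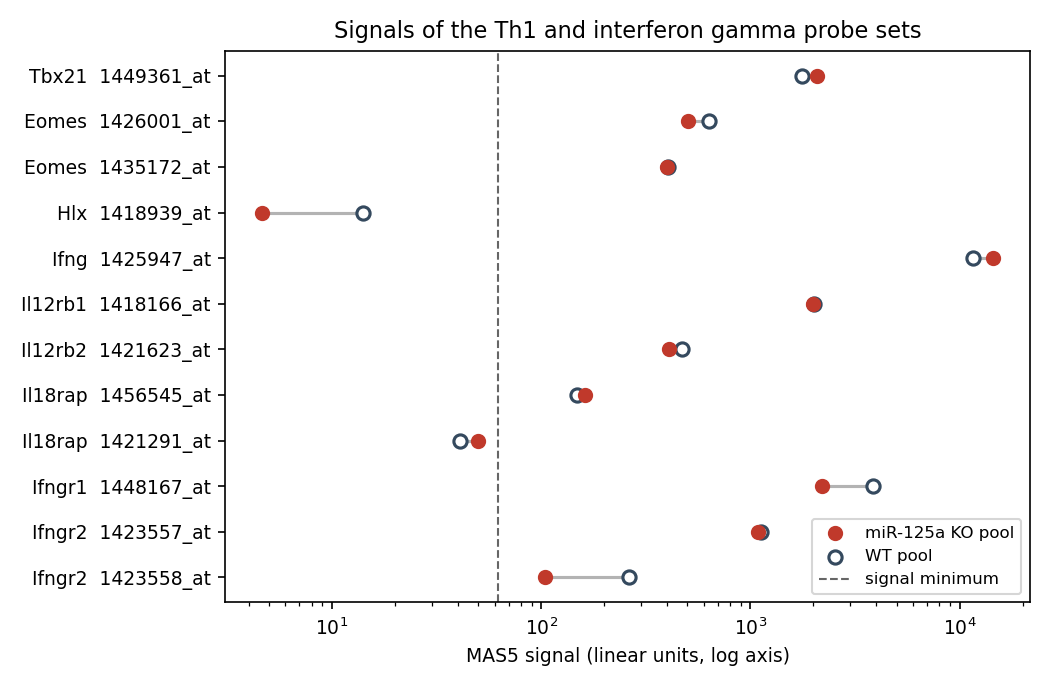
MAS5 signals of the 12 probe sets, on a log axis, in the miR-125a KO pool (filled) and the WT pool (open), 1 array each, with the signal minimum of 62.5 dashed. The widest gaps above the minimum are those of Ifngr1 (2210 in KO, 3838 in WT) and the dimmer probe set of Ifngr2 (104 in KO, 264 in WT), while Hlx lies below the minimum in both pools.

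Among the transcription factors, Tbx21, the Th1 master regulator, had a signal of 2080 in the miR-125a KO pool and 1755 in the WT pool. Its log2 ratio was 0.24 (probe-set SD 0.21), or 1.18-fold. A difference at least this far from 0 was seen in 36.7% of the 1923 probe sets of similar signal. Tbx21 was thus slightly higher in the miR-125a KO pool, by about the disagreement between probe sets.

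Eomes, which T cells with cytotoxic features express alongside or in place of T-bet, was read by 2 probe sets. The brighter, 1426001_at, had 501 in the miR-125a KO pool and 636 in the WT pool, a log2 ratio of -0.33 (probe-set SD 0.27). The other, 1435172_at, had 398 in the miR-125a KO pool and 402 in the WT pool, a ratio of -0.01 (probe-set SD 0.27) that turned positive, up to 0.05, with each of 3 other array scalings. The Eomes probe sets differed from each other by 0.32 on the log2 scale, which was matched or exceeded in 30.4% of 5030 genes with 2 or more probe sets past the minimum. A lower Eomes level therefore rests on the brighter probe set, whose ratio was 1.21 times its probe-set SD. Of the 1923 probe sets of similar signal, 30.4% had a ratio as far from 0.

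Hlx was near the bottom of the range, with 4.63 in the miR-125a KO pool and 14.1 in the WT pool. Both signals are below the pseudocount, so no ratio is given.

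Ifng was the brightest of the 12 probe sets in both pools. Its signal was 14457 in the miR-125a KO pool and 11536 in the WT pool, a log2 ratio of 0.33 (probe-set SD 0.16), or 1.25-fold. Of the 1923 probe sets in the brightest of 10 equal groups, 10.3% had a ratio as high and 17.9% one as far from 0. Across 6 other scalings and pseudocounts the ratio lay between 0.27 and 0.36. Ifng was higher in the pool without miR-125a by 1.99 times the probe-set SD, from 1 probe set.

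The receptors that relay IL-12 and IL-18 differed little. Il12rb1, the chain that the IL-12 and IL-23 receptors share, had 1989 in the miR-125a KO pool and 2021 in the WT pool, a log2 ratio of -0.02 (probe-set SD 0.21) that was 0.02 with equal array medians. Il12rb2, the chain specific to IL-12 and a hallmark of Th1 cells, had 407 in the miR-125a KO pool and 471 in the WT pool, a ratio of -0.20 (probe-set SD 0.27). Il18rap, the accessory chain of the IL-18 receptor, had 161 in the miR-125a KO pool and 148 in the WT pool by 1456545_at, a ratio of 0.12 (probe-set SD 0.38). None of these 3 ratios exceeded its probe-set SD. The other Il18rap probe set, 1421291_at, had 50.2 in the miR-125a KO pool and 40.8 in the WT pool, below the minimum.

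The interferon gamma receptor held the widest differences of the group. Ifngr1, the ligand-binding chain, had a signal of 2210 in the miR-125a KO pool and 3838 in the WT pool. The log2 ratio was -0.79 (probe-set SD 0.19), or 1.73-fold lower. Of the 1923 probe sets of similar signal, between 1833 and 3549, 1.40% had a ratio as low and 1.92% one as far from 0. It stayed between -0.80 and -0.75 under 6 other scalings and pseudocounts, and rests on 1 probe set.

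Ifngr2, the signalling chain, gave a different answer with each of its probe sets. The brighter, 1423557_at, had 1090 in the miR-125a KO pool and 1119 in the WT pool, a log2 ratio of -0.04 (probe-set SD 0.23) that was 0.0019 with equal array medians. The dimmer, 1423558_at, had 104 in the miR-125a KO pool and 264 in the WT pool, a ratio of -1.22 (probe-set SD 0.38), or 2.33-fold lower. This probe set is the member counted at 2-fold, and with a pseudocount at the median signal its ratio was -0.97. Of the 1923 probe sets of similar signal, between 143 and 220, 0.676% had a ratio as low.

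The Ifngr2 probe sets differed by 1.18 on the log2 scale. The median of that gap was 0.20 over the 5030 genes with 2 or more probe sets past the minimum, and 0.915% of them had one as wide. Among the 609 genes whose second probe set was as dim as that of Ifngr2, 0.985% did. Whether the probe sets read different transcripts of Ifngr2 was not tested. A lower level of the whole Ifngr2 gene is not shown by the brighter probe set, so the receptor chains cannot be said to move together.

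**Figure D2:**
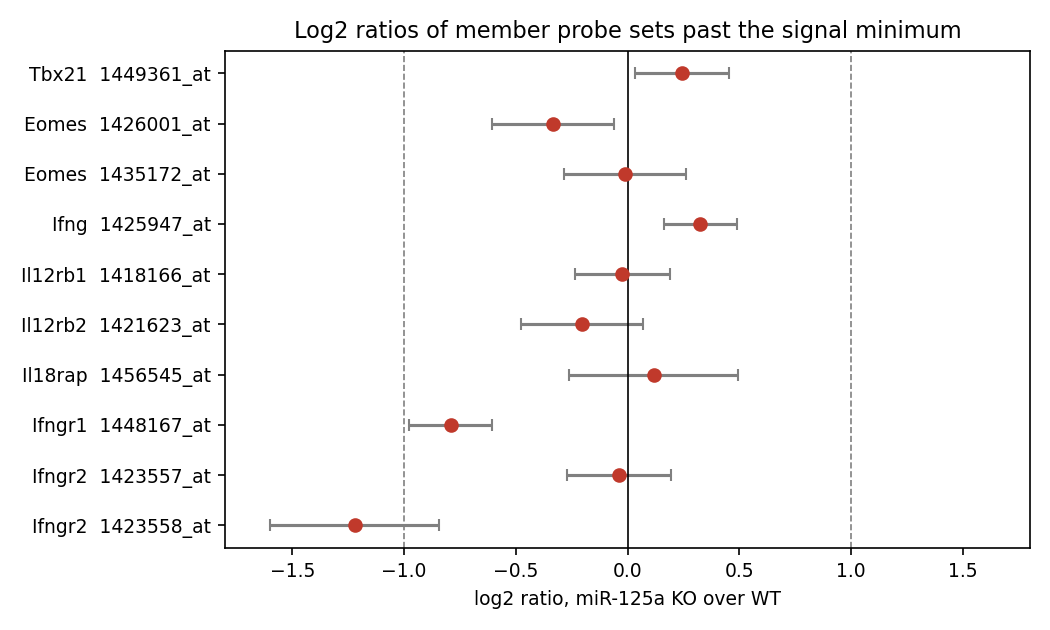
Log2 ratio of miR-125a KO over WT for the 10 probe sets past the signal minimum, 1 array per genotype. Bars are the probe-set SD at that signal, from 0.16 to 0.38, and dashed lines mark 2-fold; Ifngr1 and the dimmer Ifngr2 probe set lie at -0.79 and -1.22, and Ifng is highest at 0.33.

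**Figure D3:**
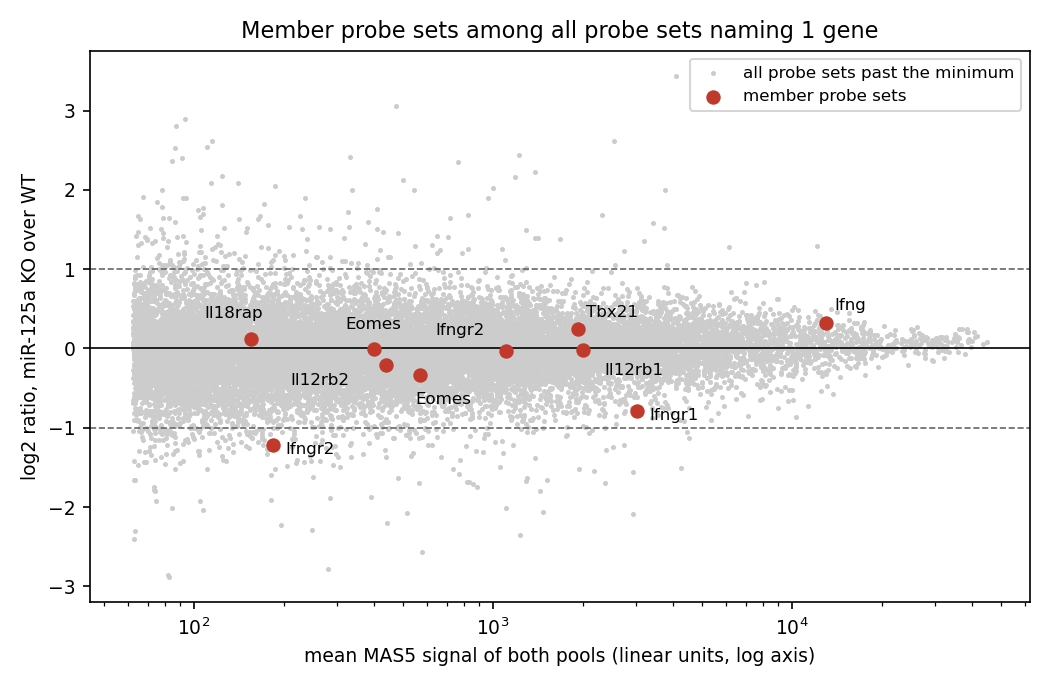
Log2 ratio of miR-125a KO over WT against mean signal (log axis) for the 19229 probe sets past the minimum that name 1 gene (grey) and the 10 member probe sets (red, labelled); dashed lines mark 2-fold. Ifngr1 and the lower Ifngr2 point sit at the lower edge of the grey cloud, and the other 8 lie inside it.

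The start regions of Ifng and Ifngr1 are shown because these genes had the highest ratio and the lowest ratio among members read by 1 probe set. Each is 300 bases, 250 before and 50 after the annotated start, from the RefSeq promoter table of GRCm38.p6. Ifng lies on the plus strand of chromosome 10, at chr10:118440796-118441095, and its TATA box (TATAAA), in capitals, begins 30 bases before the start. Ifngr1 lies on the plus strand of the same chromosome, at chr10:19591699-19591998, and capitals mark its 2 GC boxes (CCGCCC).
Ifng: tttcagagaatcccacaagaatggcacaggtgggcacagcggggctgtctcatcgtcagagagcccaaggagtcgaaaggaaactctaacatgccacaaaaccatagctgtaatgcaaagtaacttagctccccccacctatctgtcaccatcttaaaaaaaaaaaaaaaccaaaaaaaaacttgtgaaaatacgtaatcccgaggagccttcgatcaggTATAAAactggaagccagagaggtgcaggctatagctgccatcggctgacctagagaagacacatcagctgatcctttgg
Ifngr1: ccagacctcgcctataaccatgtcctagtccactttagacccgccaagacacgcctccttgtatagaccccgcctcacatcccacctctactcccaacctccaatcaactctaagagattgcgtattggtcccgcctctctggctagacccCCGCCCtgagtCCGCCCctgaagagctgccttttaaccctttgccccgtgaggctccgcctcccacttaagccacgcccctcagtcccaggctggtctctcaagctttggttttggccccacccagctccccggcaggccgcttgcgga
In all, 4 motifs were searched on both strands of such windows, which the table held for 8 of the 9 genes. The TATA box was in the window of 1 gene, Ifng, and in 13.6% of all 32851 windows. The GC box was in those of 3 genes, Tbx21, Ifngr1 and Ifngr2, and in 35.7% of all. The interferon gamma-activated sequence (TTCNNNGAA), which STAT factors bind, was in those of Ifng and Il12rb2 and in 8.30% of all, and a T-box core (GTGTGA) was in that of Il12rb2 and in 14.5% of all. The windows of Ifngr1 and Ifngr2 had 60.3% and 74.3% G and C, that of Ifng 46.0%, and the median window 52.7%. A match is a run of letters and not a measured site.

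Genes around these members were counted by their brightest probe set. Over the 10583 such genes past the minimum, the miR-125a KO pool was higher by 2-fold or more in 1.08% and lower in 1.18%, 2.26% in all. At 1.5-fold the shares were 5.01% higher and 5.77% lower. A ratio below 0 was found in 49.0%, and the median was 0.01.

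Genes linked to Th1 cells other than the members lay mostly below 0. Of 18 listed genes the array named 17, all past the minimum, and 15 of these had a negative log2 ratio, with a median of -0.30. None reached 2-fold in either direction, and 4 were at least 1.5-fold lower. Cxcr3, the chemokine receptor that T-bet induces, was lowest, at 665 in the miR-125a KO pool and 1287 in the WT pool, a ratio of -0.94 (probe-set SD 0.23). Ccl3, a chemokine of activated T cells, had 6701 in the miR-125a KO pool and 11306 in the WT pool, a ratio of -0.75 (probe-set SD 0.16). The genes above 0 were Bhlhe40, a factor that supports cytokine production, with 0.22, and Il2, the T cell growth factor, with 0.31 at signals of only 87.9 in the miR-125a KO pool and 68.0 in the WT pool. Tbx21 and Ifng were thus above 0 while most genes of this list were below it.

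These libraries are bulk RNA, in which fewer cells of a type and less RNA per cell cannot be told apart. Cytotoxic and natural killer (NK) cells also express Ifng, Tbx21, Eomes and several genes of the Th1 list. Cd8a and Cd8b1, the chains of CD8, summed to 627 in the miR-125a KO pool and 873 in the WT pool, with log2 ratios of -0.54 and -0.38, and the 4 other Cd8a probe sets that passed lay between -0.56 and 0.15. Of 8 NK and innate lymphoid markers named by the array, 6 passed the minimum and 4 of these were below 0. The summed signal of the 8 was 34059 in the miR-125a KO pool and 40053 in the WT pool, most of it from Gzma, and none was at the lowest deposited value. Fcer1g, a signalling adaptor of NK and myeloid cells, was the 1 marker of these at 2-fold, at 103 in the miR-125a KO pool and 226 in the WT pool, a ratio of -1.02 (probe-set SD 0.38). Klrd1, Klrk1 and Gzma had ratios of -0.64, -0.53 and -0.12, and Klra7 and Klre1 of 0.92 and 0.58. Ncr1, which marks NK cells and their innate relatives, was at 18.0 in the miR-125a KO pool and 14.0 in the WT pool, below the minimum. The part of these cells in the Ifngr1, Eomes and Th1 values was not tested. Whether the share of Treg cells among the sorted CD4 cells differed between the pools was not tested either.

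Markers of the sorted population were also read. Cd4 and Il2ra, which encodes CD25, were selected by the sort itself, so their signals cannot check it. All 6 named T cell markers passed the minimum, with ratios from -0.45 (Cd28) to 0.03 (Thy1). The 7 Treg markers did too, and 2 of them, Foxp3 and Nt5e, were at least 2-fold lower, at -1.21 and -1.13. Tnfrsf18 had -0.08, and the other 4 were above 0, Ikzf2 at 0.45, Gpr83 at 0.34, Il2ra at 0.27 and Ctla4 at 0.02, which is also the median of the 7. The other probe sets past the minimum had 0.25 for Ikzf2, -0.07 for Gpr83, 0.02 for Il2ra and -1.19 for Nt5e. Of 5 B cell, 8 myeloid, 4 neutrophil and 4 mast cell and basophil markers, 1, 3, 0 and 2 passed the minimum. These 6 had at most 229 in either pool. The summed signal of the 8 myeloid markers was 384 in the miR-125a KO pool and 532 in the WT pool, that of the 4 neutrophil markers 86.8 in the miR-125a KO pool and 172 in the WT pool, and no marker was at the lowest deposited value.

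Upstream of Ifng, the pathway of IL-12 and IL-18 stayed close to the array as a whole. Of 22 listed genes the array named 18, and 15 passed the minimum. None of the 15 reached 2-fold, 8 were above 0, and the median log2 ratio was 0.03, or -0.03 with a signal minimum of 451. Gadd45b, a stress sensor that amplifies IL-12 and IL-18 signals through p38, was highest, at 1977 in the miR-125a KO pool and 1188 in the WT pool, a ratio of 0.73 (probe-set SD 0.21). Its 2 other probe sets past the minimum had 0.18 and 0.83. Jak2, the kinase bound to Il12rb2, had a ratio of 0.25, while Irak1 and Traf6, relays of the IL-18 receptor, had -0.33 and -0.25. The 3 other Irak1 probe sets past the minimum lay between -0.43 and 0.15, on both sides of 0, and the 3 of Traf6 between -0.75 and -0.34. The ligand genes Il12a, Il12b and Il18 were below the minimum in their mean signal.

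Downstream of the receptor, 5 of 10 signalling and brake genes were above 0 and 1 was at least 2-fold higher. Their median was -0.05, or 0.03 with the mean over probe sets. The gene at least 2-fold higher was Usp18, known as a brake of the type I interferon receptor. It had 1521 in the miR-125a KO pool and 396 in the WT pool, a ratio of 1.90 (probe-set SD 0.23). Ptpn6, a phosphatase that restrains cytokine signals, had -0.38, with its other probe set at -0.05, and Pias1, a SUMO ligase, had -0.25. Jak1 and Jak2, the kinases of the interferon gamma receptor chains, had -0.21 and 0.25. The 2 other Jak1 probe sets past the minimum had -0.70 and -0.27, and the other of Jak2 had 0.23. Socs1, the inducible inhibitor of these kinases, had 0.14. The list was split evenly around 0.

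Genes that interferon gamma induces were counted from a list of 37, of which the array named 29 and 23 passed the minimum. None of the 23 reached 2-fold, 3 were at least 1.5-fold lower and 0 at least 1.5-fold higher. Those below 0 numbered 15, and the median log2 ratio was -0.13. The 3 were guanylate-binding proteins, GTPases of cell-autonomous defence. Gbp7 had 874 in the miR-125a KO pool and 1701 in the WT pool, a ratio of -0.95 (probe-set SD 0.20) with its other probe set at -0.82. Gbp3 had 614 in the miR-125a KO pool and 981 in the WT pool, a ratio of -0.66 (probe-set SD 0.24). Gbp2 had 6184 in the miR-125a KO pool and 9647 in the WT pool, a ratio of -0.64 (probe-set SD 0.16) with its other probe set at -0.66. By their identifiers, the Gbp3 probe set and the brighter of Gbp2 can match several transcripts. Gbp6, of the same family, was not lower by its brighter probe set, with a ratio of 0.13 (probe-set SD 0.19) and its other probe set at -0.20. At the other end, Icam1, an adhesion molecule, had 0.28 and Psmb10, an immunoproteasome subunit, 0.21. Irf1, a transcription factor of interferon responses, had -0.19. These genes also respond to type I interferon, so the list does not read interferon gamma alone.

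**Figure D4:**
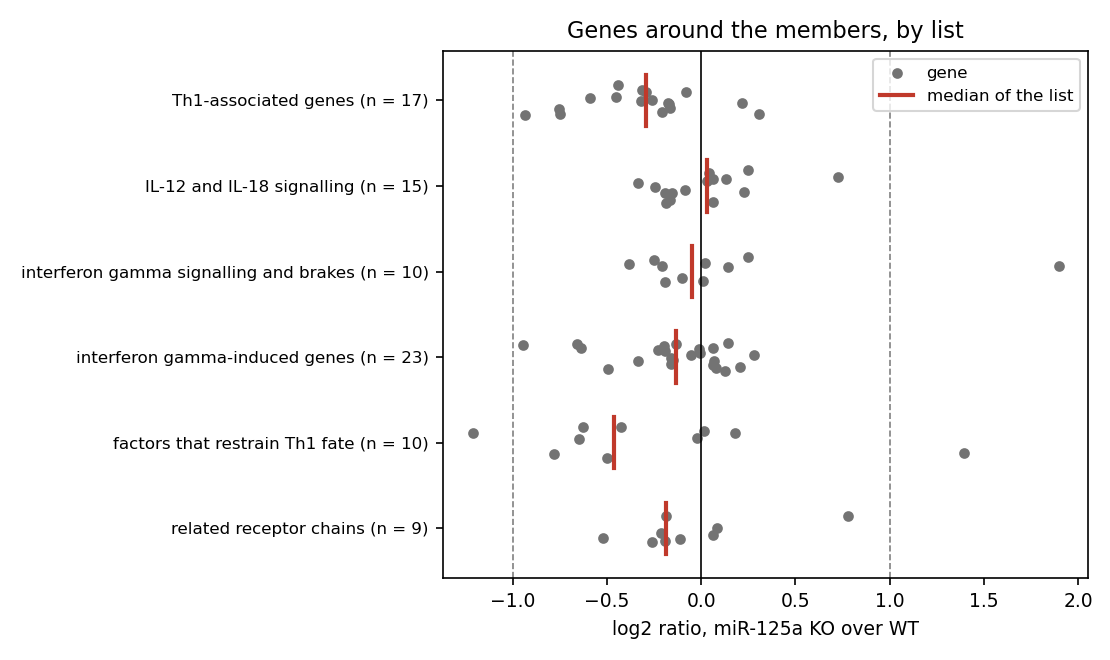
Log2 ratio of miR-125a KO over WT for genes past the signal minimum in 6 lists around the members, 1 point per gene, spread vertically for legibility. Red bars mark each list's median, from -0.46 for factors that restrain Th1 fate to 0.03 for IL-12 and IL-18 signalling, and dashed lines mark 2-fold.

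Factors described as holding back the Th1 programme held the widest spread. Of 10 past the minimum, 1 was higher and 1 lower by 2-fold or more, 7 were below 0, and the median was -0.46. Gata3, which directs type 2 helper cells and opposes T-bet, had 2016 in the miR-125a KO pool and 756 in the WT pool, a ratio of 1.40 (probe-set SD 0.20). Foxp3, the Treg master regulator, had 694 in the miR-125a KO pool and 1631 in the WT pool, a ratio of -1.21 (probe-set SD 0.20). Bcl6, the follicular helper factor, had -0.78 at signals of 48.9 in the miR-125a KO pool and 95.9 in the WT pool. Egr2, an activation-induced factor, had 0.18, with its other probe set at -0.80.

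Receptor chains of the same families as the members were mostly below 0. Of 9 past the minimum, 6 were below 0 and 0 reached 2-fold, with a median of -0.19. Il10rb, which serves IL-10 and related cytokines, had 1691 in the miR-125a KO pool and 2437 in the WT pool, a ratio of -0.52 (probe-set SD 0.21) with its other probe set at -0.64. The probe sets of Il10ra, the other chain of the IL-10 receptor, disagreed, with -0.11 for the brightest and 1.63 for the other. Ifnar2, a chain of the type I interferon receptor, had -0.26. Il1r2, a decoy receptor for IL-1, was highest, at 0.78. Il1rap, a chain that several IL-1 family receptors share, had 0.08 at signals of 86.6 in the miR-125a KO pool and 80.7 in the WT pool.

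The 2 nearest named protein-coding genes on either side of each member were also read, in the gene order of GRCm38.p6. Genes with placeholder symbols (Gm, LOC or Rik) were passed over. Of these 36 neighbours the array named 31 and 21 passed the minimum, with 1 higher and 0 lower by 2-fold or more. The 1 was Gadd45a, a DNA damage response gene beyond Serbp1 from Il12rb2, at 476 in the miR-125a KO pool and 227 in the WT pool, a ratio of 1.01. Around Ifngr2 on chromosome 16, the 3 neighbours past the minimum were below 0, Tmem50b at -0.56, Il10rb at -0.52 and Ifnar1 at -0.21. The 1 neighbour of Ifngr1 past the minimum was Tnfaip3, an inhibitor of NF-kB signalling, at 7900 in the miR-125a KO pool and 5069 in the WT pool, a ratio of 0.64. These 4 were named after their values were seen. On the side of Ifng toward Dyrk2, that gene and Cand1 had -0.16 and 0.01, against 0.33 for Ifng.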

How the data were processed

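Expression was measured on 1 Affymetrix array per genotype, from RNA pooled over mice. The authors deposited log2 values, and MAS5, without a version, is named in the submitters' processing notes. They were turned back to linear signals. Symbols came from the platform annotation; all 9 members matched the RefSeq gene table of GRCm38.p6 by gene identifier. Each member probe set was read separately, and other genes by their brightest probe set. The probe-set SD is that of the log2 ratio between the 2 brightest probe sets of 5030 genes, divided by the square root of 2, in 10 equal groups by signal. It was 0.38 in the dimmest and 0.16 in the brightest. The share of probe sets as far from 0 was taken within 10 equal groups by mean signal. No detection calls were used, and the number of arrays limits the precision. The ratio calculation was tested on simulated data. Python 3.11.15, numpy 2.4.6, pandas 2.3.3 and statsmodels 0.14.6 were used.

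The members and the 6 pathway and 8 marker lists were chosen with earlier results of these data known. Named genes were all members with every probe set, the 2 highest and 2 lowest ratios of each pathway list, list genes and neighbours at 2-fold or more, and NK, CD8 and Treg markers. Other genes named (Gbp2, Gbp6, Irf1, Jak1, Socs1, Il10ra, Il12a, Il12b, Il18, neighbours under 2-fold and markers of other cells) were chosen after their values were seen. Likeness of pattern was not computed, since 2 arrays give each gene 1 difference. Scaling alternatives were equal medians, quantile and loess (span 0.3). Other pseudocounts were 0, 1 and the median signal (63.1). Counts were also made with no filter or one at the 75th percentile (451), and with 1.5-fold or 3-fold as the rule. Probe sets that can match several transcripts (identifiers with s, x or a before the suffix) were omitted in another alternative. In the last, a gene's probe sets were averaged.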

Additional observations from a re-analysis of the deposited data

How the results depend on the processing

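The 1 member probe set at least 2-fold lower, that of Ifngr2, was 0 with a pseudocount at the median signal, 0 with the filter at the 75th percentile, which left 6 member probe sets, and 0 at 3-fold, and 2 at 1.5-fold. Over all probe sets, 199 were higher and 266 lower at 2-fold. The counts were 95 and 109 with a pseudocount at the median signal, 1491 and 1187 with no filter, 45 and 76 with the filter at the 75th percentile, 908 and 1375 at 1.5-fold, and 54 and 39 at 3-fold. The share of higher among these was 42.8%, and 54.6% after loess and 53.8% after quantile scaling. The cause of these shifts was not tested. The median of the member probe sets was -0.03, and 0.01 with equal medians. The Eomes, Il12rb1 and Ifngr2 ratios nearest to 0 changed sign with scaling. The list of factors that restrain Th1 fate had a median of -0.46. It was -0.22 once probe sets that can match several transcripts were omitted, and -0.25 when a gene's probe sets were averaged. That omission leaves out Foxp3 and Zbtb32 and takes the list's genes at least 2-fold lower to 0. No paired analysis was possible because each genotype has 1 array. MAS5 values near the minimum vary widely, which limits the dim Ifngr2 and Il18rap values.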
